A study of Homo sapiens with 4 samples.

Results

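The G1 cyclins, their kinases, 2 of the kinase inhibitors and *RB1* were followed by single-cell RNA sequencing in the A375 melanoma line. The set holds 10 genes of 32991 listed in all 4 count tables, and was chosen by name: the D cyclins *CCND1*, *CCND2* and *CCND3*, the kinases *CDK4*, *CDK6* and *CDK2*, the E cyclin *CCNE1*, the inhibitors *CDKN1B* and *CDKN2C*, and *RB1*. All 10 were matched to 1 Ensembl identifier each. A375 is an established human melanoma line with the *BRAF* V600E mutation. All groups were cultures of this line, and the mutation was not looked for in their reads. S cells were untreated, RV cells were resistant to the BRAF inhibitor vemurafenib, RVC cells to vemurafenib with the MEK inhibitor cobimetinib, and RVT cells to vemurafenib with the MEK inhibitor trametinib. The resistant cultures had been kept on drug for 10 to 14 days, and the drug was withdrawn 24 h before capture. Each condition was 1 droplet library (10x Genomics Chromium v2) of 1 culture, for which 10000 cells were loaded.

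D cyclins bind CDK4 or CDK6 in G1, and these kinases start the phosphorylation of RB1. Cyclin E with CDK2 then completes it, and RB1 releases the E2F factors that switch on the genes of DNA replication. The INK4 protein p18, encoded by *CDKN2C*, binds CDK4 and CDK6 themselves, whereas p27, encoded by *CDKN1B*, binds cyclin-CDK complexes and chiefly blocks CDK2. In melanoma, *CCND1* is known as a gene that responds to ERK signaling, the pathway that BRAF and MEK inhibitors block.

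After filtering, 4177 to 8446 cells per library remained, with 25390117 to 58519152 UMIs, the unique molecular identifiers by which transcript molecules were counted. The level of a gene is given as CPM, its UMIs per 1000000 UMIs of the library, with an exact 95% Poisson interval in brackets. Positions are on GRCh38 by GENCODE 29. Intervals cover counting error only. With 1 library per condition no test between conditions was possible, and how far cultures of 1 condition vary was not measured. A member was called higher or lower where its CPM differed more than 2-fold, and the same was done for every gene with a mean of at least 1 CPM. The median cell held 8799.5, 11553, 3958 and 2864 UMIs for S, RV, RVC and RVT.

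The RVC and RVT libraries stood apart from S and RV in ways that the drugs do not define. They were counted with another gene list and were shallower, and 903 and 1084 of their barcodes were under the gene minimum against none in S and RV. The median mitochondrial share was 3.16%, 3.06%, 3.58% and 5.77% across S, RV, RVC and RVT. The ratios were repeated in cells with at most 10% mitochondrial UMIs and with totals without ribosomal and mitochondrial genes. Beyond these repeats its part in the results was not tested. Of 12 melanocyte and melanoma markers, which summed to 2834 CPM in S and 2845 in RV, the sum was 581 in RVC and 550 in RVT, and *SOX10* and *S100B* had no UMI in RVC. *VIM*, which mesenchymal cells also express, gave most of each sum, and the other 11 summed to 400.4 CPM, 255, 21.4 and 219 across S, RV, RVC and RVT. Among these *MITF*, the melanocyte lineage factor, had 9.77 CPM, 20.01, 8.13 and 41.9, so RVC rather than RVT stood lowest. Of 7 fibroblast markers, 2 were at 0 in S and RV, none in RVC and 1 in RVT, and their sum was 2.92 CPM, 2.31, 187 and 44.5 across S, RV, RVC and RVT. In RVC 41.2% and in RVT 11.9% of the cells had a UMI of such a marker, against 2.68% in S and 2.82% in RV. The ratios and the D cyclin make-up were therefore repeated in the cells without one. These shares were taken at unequal depth, and a deeper cell is more likely to show a marker and be left out. Leukocyte and endothelial markers summed to at most 1.33 CPM in every library, with *PTPRC* and *CD3E* at 0. Among epithelial markers *EPCAM* and *CDH1* were at or near 0, while *KRT8* and *KRT18* gave nearly the whole sum of 202 to 1739 CPM. Fewer cells of a kind and less RNA per cell cannot be told apart in these sums. Across genes, the richer the last 500 transcript bases were in G and C, the lower the log2 ratio was in RVC over S (Spearman correlation -0.32 across 12652 genes) and in RVT over S (-0.39), less in RVT over RVC (-0.15) and hardly in RV over S (-0.0029). Neighbouring genes are not independent, and the value is a description. Between 36 and 103 cell barcodes were shared by a pair of filtered libraries.

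**Figure D1:**
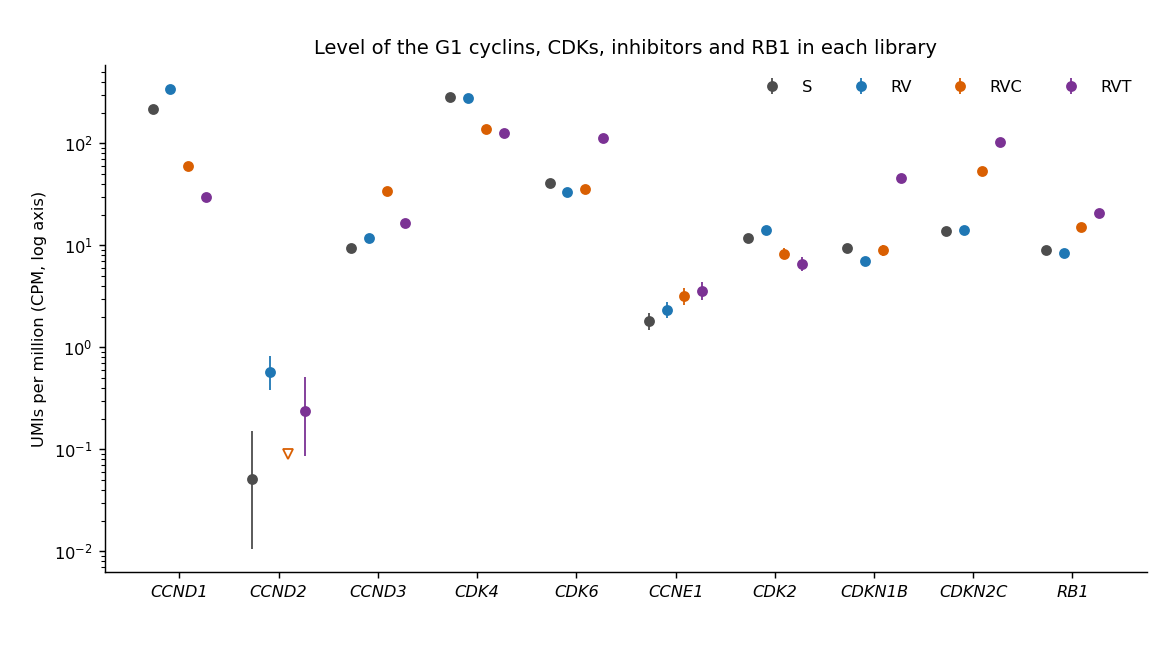
Level of the 10 members in the S, RV, RVC and RVT libraries in UMIs per 1000000 on a log axis. Points are 1 library each and bars are exact 95% Poisson intervals, mostly smaller than the points. The open triangle marks *CCND2* in RVC, which had no UMI, at the limit of 3 UMIs. *CCND1* and *CDK4* sit lower in RVC and RVT, *CDKN2C* sits higher in both, and *CDK6* and *CDKN1B* sit higher in RVT alone.

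Which members differed after each treatment was asked first. None of the 9 members tested passed 2-fold in RV over S, where 6.67% of the 12636 genes tested did, 3.47% higher and 3.20% lower. In RVC over S 4 of the 9 members tested passed 2-fold, *CCND3* and *CDKN2C* higher and *CCND1* and *CDK4* lower, beside 46.2% of all genes, 23.8% higher and 22.3% lower. In RVT over S 6 of 9 passed, namely *CDKN2C*, *CDKN1B*, *CDK6* and *RB1* higher and *CCND1* and *CDK4* lower, beside 55.8% of all genes, 34.1% higher and 21.7% lower. RVT over RVC held 4, with *CDKN1B* and *CDK6* higher and *CCND1* and *CCND3* lower, beside 34.0% of all genes, 21.7% higher and 12.2% lower. As a share the members were thus close to the background in each comparison with a double-agent-resistant library. The tenth member, *CCND2*, was under the minimum of 1 CPM. The comparisons with S share its 1 library. In the cells without a fibroblast marker UMI the same 4 members and *CCNE1* passed 2-fold in RVC over S, the same 6 in RVT over S, and *CDKN1B* and *CDK6* alone in RVT over RVC. Of all genes 45.45%, 55.67% and 35.83% passed in these cells, in the same order.

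**Figure D2:**
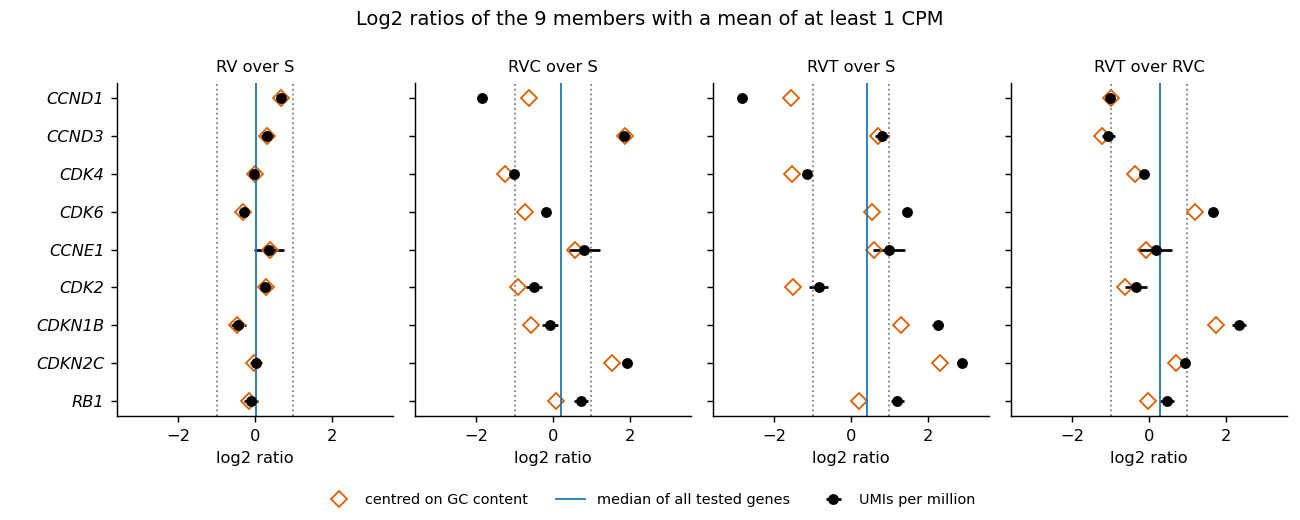
Log2 ratio of the 9 tested members in 4 comparisons between libraries. Black points are ratios of UMIs per 1000000 with exact 95% intervals, open diamonds the ratios after centring within bins of GC content, dotted lines 2-fold in either direction, and the blue line the median of all tested genes. In RV over S no member leaves the dotted lines, and in RVC over S the diamond of *CCND1* lies inside them.

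The median log2 ratio of the 9 members was 0.02 in RV over S, -0.08 in RVC over S, 0.98 in RVT over S and 0.17 in RVT over RVC. Over all tested genes it was 0.02, 0.21, 0.41 and 0.29. On this scale the genes as a whole were thus shifted upward in RVC and RVT, and the shift changed with the scaling. With TMM factors the median of all genes was -0.03, -0.01, -0.13 and -0.02 in the same order.

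In the main setting the D cyclins carried the largest fall of the set and a change of make-up. *CCND1* (chr11:69641087-69654474) encodes cyclin D1. It stood at 215 CPM (211 to 219), 343 (338 to 348), 60.0 (57.4 to 62.7) and 29.8 (27.7 to 32.0) for S, RV, RVC and RVT. No 2 of these intervals overlapped, and the order from high to low was RV, S, RVC and RVT. Against S it fell 3.59-fold in RVC (3.42 to 3.76) and 7.23-fold in RVT (6.72 to 7.79). In RV it was 1.59 times the S level (1.56 to 1.63), which left it inside 2-fold but above 92.8% of the tested genes.

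The last 500 bases of *CCND1* hold 60.8% G and C, the highest share among the members. After centring within bins of GC content its log2 ratio was -0.64 in RVC over S, short of 2-fold, and -1.56 in RVT over S, still past it. *CDK4* kept its call in RVC over S after this centring, so there *CCND1* no longer had the largest fall. The log2 ratio of *CCND1* in RVT over RVC was -1.01 and lost the call in 5 of 13 alternatives, with a range of -1.31 to -0.73. *LTO1*, which overlaps *CCND1* on the other strand, had 128 to 504 UMIs per library.

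*CCND3* (chr6:41934933-42050357), the gene of cyclin D3, followed another order. It had 9.43 CPM (8.66 to 10.3), 11.7 (10.8 to 12.7), 34.4 (32.4 to 36.4) and 16.5 (14.96 to 18.2) across S, RV, RVC and RVT. Its rise over S was 3.64-fold in RVC (3.29 to 4.04), past 2-fold in every alternative tried. In RVT it was 1.75 times S (1.54 to 1.99), inside 2-fold in every one of them, and 2.08-fold lower than in RVC (1.86 to 2.33). That last call was lost in the cells without a fibroblast marker and with totals that leave out ribosomal and mitochondrial genes. In cells of 2500 to 6000 UMIs its log2 ratio in RV over S was -0.60 instead of 0.32, on only 219 RV cells.

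*CCND2* (chr12:4273772-4305350), encoding cyclin D2, was nearly silent. It had 3, 30, 0 and 6 UMIs across S, RV, RVC and RVT, which is 0.0513 CPM, 0.572, 0 and 0.236. The ratio of RV to S was 11.2 with a counting interval of 3.47 to 57.1. For the count of 0 in RVC a limit of 3 UMIs was set in place of an interval, which is 0.0910 CPM. A protein-coding gene model on the same strand, AC008012.1, overlaps *CCND2* and is listed for RVC and RVT alone, and its part in those low counts was not tested.

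The share of each D cyclin among the D cyclin UMIs does not depend on how the libraries are scaled. *CCND1* gave 95.8% of them (95.4 to 96.1, exact Clopper-Pearson interval), 96.5% (96.3 to 96.8), 63.6% (61.9 to 65.3) and 64.0% (61.2 to 66.8) for S, RV, RVC and RVT. *CCND3* gave 4.20%, 3.30%, 36.4% (34.7 to 38.1) and 35.5% (32.7 to 38.3) for S, RV, RVC and RVT. The intervals of RVC and RVT overlapped for both cyclins, and neither touched those of S or RV. For each *CCND3* UMI there were 22.8 *CCND1* UMIs (20.95 to 24.9), 29.2 (27.0 to 31.7), 1.75 (1.62 to 1.88) and 1.80 (1.60 to 2.04) across S, RV, RVC and RVT.

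Together the D cyclins had 225 CPM (221 to 229), 355 (350.4 to 360.6), 94.4 (91.1 to 97.8) and 46.5 (43.9 to 49.2) across S, RV, RVC and RVT. *CCND1* stayed the more abundant D cyclin by UMIs in all 4 libraries. UMIs were counted at transcript ends, so a value is not divided by length, and a ratio between genes also depends on how well each is captured. In the cells without a fibroblast marker UMI the *CCND3* share was 40.0% in RVC and 36.2% in RVT. *CCND1* and *CCND3* differ in end GC content, 60.8% against 51.6%. Centring on GC content moved the log2 ratio of *CCND1* in RVC over S from -1.84 to -0.64. That of *CCND3* stayed at 1.63 or more in every alternative. The make-up itself was not corrected for GC content.

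**Figure D3:**
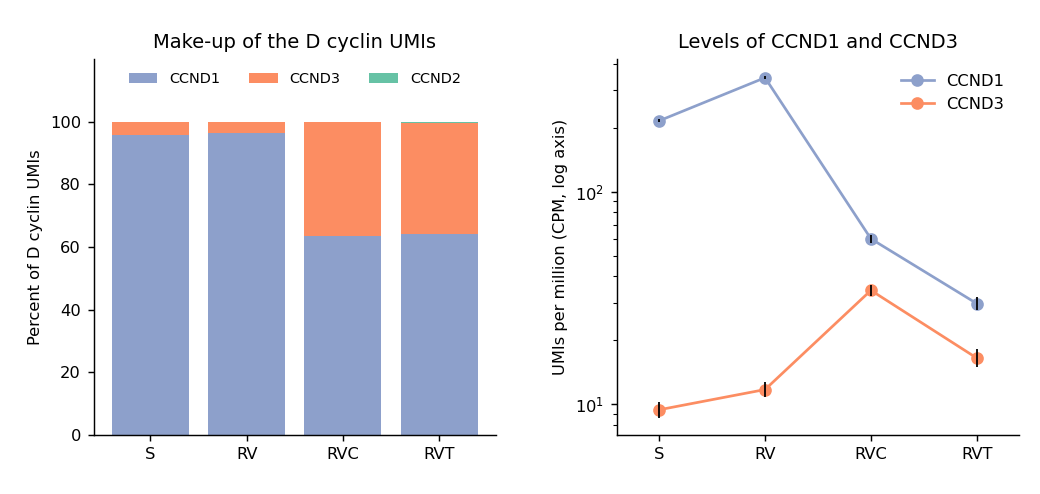
D cyclins in the S, RV, RVC and RVT libraries. Left, percent of D cyclin UMIs from *CCND1*, *CCND3* and *CCND2* (the last too small to see). Right, *CCND1* and *CCND3* in UMIs per 1000000 on a log axis with exact 95% Poisson intervals. The *CCND3* share is 4.20% in S and 36.4% in RVC, and the lines approach each other in RVC and RVT.

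Among the D cyclin kinases, *CDK4* was lower and *CDK6* higher in RVT, so that their UMIs came near parity. *CDK4* (chr12:57747727-57756013) stood at 281 CPM (277 to 286), 277 (272 to 281), 138 (134 to 142) and 126 (122 to 131) for S, RV, RVC and RVT. The intervals of S and RV overlapped, and RVC lay just above RVT. The fall from S was 2.04-fold in RVC (1.97 to 2.10) and 2.23-fold in RVT (2.15 to 2.32). In cells of 2500 to 6000 UMIs the log2 ratios were -0.83 and -0.99, both short of 2-fold, and with every cell weighted equally the call in RVC was lost too.

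The *CDK4* promoter is shown because *CDK4* is the most abundant kinase of the set and carries a repeated motif upstream of its RefSeq start. RefSeq promoters (GRCh38.p14, 250 bases before the start) were found for 7 of the 10 members, with no entry used for *CCND1*, *CCND2* and *CDK2*. The only *RB1* window, chr13:48476200-48476449, lies inside the gene, which starts at 48303726, so the stretch before the start of *RB1* was not searched. By the GENCODE 29 bounds every window of *CCND3*, *CDK4* and *CDKN1B* lies inside its gene as well, so the stretch before their outermost start was not searched either. Searched on both strands, the E-box CACGTG, the site of the MYC family, occurred in 2 of these 7 members. Counted by window, since a gene can have several start sites, it was in 3 of their 12 and in 6.35% of 35116 over all genes. *CDK4* held it 3 times, starting 216, 196 and 101 bases before the start site, and *CDKN2C* held it once before each of 2 of its start sites, at 220 and 69 bases. The stretches of 30 bases around them are given 5′ to 3′ on the strand of the gene, with the motif in capitals.
CDK4 chr12:57752499-57752528 (-): gtCACGTGtgatagcaacagatCACGTGgc
CDK4 chr12:57752394-57752423 (-): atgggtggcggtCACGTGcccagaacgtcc
CDKN2C chr1:50960513-50960542 (+): gattgtgcacctCACGTGgttagtcacaca
CDKN2C chr1:50970164-50970193 (+): ttgctgaataatCACGTGtgaatcgagggg
The genes with these stretches moved in opposite directions, *CDK4* lower and *CDKN2C* higher in RVC and RVT. The AP-1 site TGACTCA, the CRE TGACGTCA, the E2F sites TTTCCCGC and TTTGGCGC and the forkhead site TGTTTAC were in the windows of none of the 7 members and in 4.20%, 1.65%, 1.93% and 2.98% of all windows. The GC box GGGCGG was in 8 of the 12 windows and in 42.6% of all. By GENCODE 29 the first *CDK4* stretch reaches into, and the second lies in, a UTR of transcripts of the gene. The first *CDKN2C* stretch lies upstream of the gene and the second in a UTR of one of its transcripts. These are matches of letters in a fixed window, and for *RB1*, *CCND3*, *CDK4* and *CDKN1B* they do not cover the stretch before the outermost start of the gene.

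*CDK6* (chr7:92604921-92836594) had 41.1 CPM (39.5 to 42.8), 33.7 (32.1 to 35.3), 36.0 (33.9 to 38.1) and 114 (110 to 118) across S, RV, RVC and RVT. RV and RVC overlapped, S was slightly above both, and RVT was far above all. The rise in RVT was 2.77-fold over S (2.62 to 2.93) and 3.17-fold over RVC (2.96 to 3.39). Over S it was not past 2-fold after TMM scaling (log2 ratio 0.96) or after centring on GC content (0.56), the last 500 bases of *CDK6* holding 33.0% G and C. Over RVC it was past 2-fold in every alternative.

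Of the UMIs of both kinases, *CDK6* gave 12.7% (12.3 to 13.2), 10.8% (10.4 to 11.3), 20.6% (19.6 to 21.7) and 47.4% (46.2 to 48.7) for S, RV, RVC and RVT. None of these intervals overlapped. Summed, the kinases had 323 CPM, 311, 174 and 240.3 across S, RV, RVC and RVT, so the sum in RVT lay between those of RVC and RV. *CDK4* overlaps *TSPAN31* and *MARCH9* on the other strand, which had 1092 to 1557 and 443 to 596 UMIs per library, beside 3206 to 16473 for *CDK4*. An antisense RNA at *CDK6*, AC002454.1, had 332, 212, 16 and 18 UMIs, beside 2407, 1767, 1186 and 2894 for *CDK6*. Strand use in counting is not given in the sources used here. The genes of such pairs have separate counts, and whether reads from the opposite strand entered a count was not tested.

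In the main setting neither gene of the cyclin E arm passed 2-fold over whole libraries, though each did under some alternatives. *CCNE1* (chr19:29811898-29824308) was scarce, with 106, 123, 105 and 91 UMIs across S, RV, RVC and RVT. Its level was 1.81 CPM (1.48 to 2.19), 2.34 (1.95 to 2.80), 3.18 (2.60 to 3.85) and 3.58 (2.89 to 4.40) for S, RV, RVC and RVT. Each interval overlapped that of its neighbour in this order, and S and RVC did not overlap. In RVT it was 1.98 times S (1.48 to 2.64), so that 2-fold lay inside the interval, and it passed 2-fold when every cell had equal weight. In cells of 2500 to 6000 UMIs, 799 of them in S, its log2 ratio over S was 2.10 in RVC instead of 0.81 and 2.22 in RVT instead of 0.98. Both were past 2-fold, but S and RV each had at most 3 *CCNE1* UMIs in these cells. The 2 ratios thus rest on a count at the limit, no interval was taken for them, and they cannot be read as a rise.

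*CDK2* (chr12:55966769-55972784), the kinase of cyclin E, was lower in RVC and RVT, where *CCNE1* was higher. It had 11.7 CPM (10.9 to 12.6), 14.2 (13.2 to 15.2), 8.28 (7.33 to 9.32) and 6.58 (5.62 to 7.65) across S, RV, RVC and RVT. It was 1.42 times lower in RVC than in S (1.23 to 1.64) and 1.78 times lower in RVT (1.503 to 2.12). Its log2 ratio in RVT over S was past 2-fold at -1.35 after TMM scaling, -1.51 after centring on GC content and -1.24 after centring on the median gene, and in cells of 2500 to 6000 UMIs that in RVC over S was 0.26 instead of -0.50. *CCNE1* UMIs per *CDK2* UMI were 0.155, 0.166, 0.385 (0.304 to 0.483) and 0.545 (0.417 to 0.708) for S, RV, RVC and RVT. *PMEL*, on the strand opposite *CDK2*, had 4 to 24 UMIs per library.

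The inhibitors gave the largest rises among the 9 tested members. *CDKN2C* (chr1:50960745-50974633) stood at 13.9 CPM (13.0 to 14.9), 14.1 (13.1 to 15.2), 53.2 (50.7 to 55.7) and 103 (98.9 to 107) across S, RV, RVC and RVT. S and RV overlapped, and RVC and RVT each lay clear of the rest. Its rise over S was 3.82-fold in RVC (3.51 to 4.15) and 7.38-fold in RVT (6.82 to 7.99), above 93.5% and 95.6% of the tested genes. Both calls were made in all alternatives, with log2 ratios from 1.31 to 1.96 and from 2.198 to 2.89, the lowest of both in cells of 2500 to 6000 UMIs. In RVT it was 1.93 times RVC (1.82 to 2.06).

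*CDKN1B* (chr12:12715058-12722371) set RVT apart from the other 3 libraries. It had 9.43 CPM (8.66 to 10.3), 6.996 (6.30 to 7.75), 8.92 (7.93 to 10.00) and 45.3 (42.7 to 48.0) for S, RV, RVC and RVT. S and RVC overlapped, RV was slightly below them, and RVT was 4.80-fold above S (4.33 to 5.32) and 5.08-fold above RVC (4.47 to 5.79). These calls too were made in all alternatives, the lowest log2 ratios being 1.30 over S after centring on GC content and 1.75 over RVC. In RV it was 1.35 times lower than in S (1.18 to 1.54).

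The inhibitors were then set against their target kinases. *CDKN2C* UMIs per *CDK4* UMI were 0.0495 (0.0461 to 0.0531), 0.0510 (0.0473 to 0.0549), 0.385 (0.364 to 0.406) and 0.814 (0.773 to 0.858) across S, RV, RVC and RVT. *CDKN1B* UMIs per *CDK2* UMI were 0.805 (0.718 to 0.901), 0.494 (0.435 to 0.560), 1.08 (0.910 to 1.27) and 6.89 (5.85 to 8.15) for S, RV, RVC and RVT. *CDKN2C* UMIs per *CDK6* UMI were 0.339 (0.312 to 0.367), 0.419 (0.384 to 0.457), 1.48 (1.37 to 1.59) and 0.902 (0.855 to 0.951) across S, RV, RVC and RVT. The ratio of *CDKN2C* was thus raised in RVC and RVT against both kinases, with RVT above RVC against *CDK4* and below it against *CDK6*. That of *CDKN1B* was raised chiefly in RVT. These 2 inhibitors together had 23.4 CPM, 21.1, 62.1 and 148 across S, RV, RVC and RVT. CDK inhibitors outside the set are not in this sum. Among them *CDKN2A* had 7.21 CPM, 9.40, 0.394 and 0.866 and *CDKN1C* 7.43, 1.60, 1.49 and 2.09. Both were past 2-fold lower in RVC and RVT than in S, and *CDKN1C* in RV too. *CDKN2D* had 14.0, 19.9, 14.8 and 8.47, inside 2-fold of S, *CDKN2B* had no UMI, and *CDKN1A* is given below.

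*RB1* (chr13:48303726-48599436), the gene of the pocket protein that holds E2F factors, had 9.01 CPM (8.25 to 9.81), 8.35 (7.59 to 9.17), 15.04 (13.7 to 16.4) and 20.8 (19.1 to 22.7) for S, RV, RVC and RVT. S and RV overlapped, and RVC and RVT did not. Over S it was 1.67 times higher in RVC (1.47 to 1.89) and rose 2.31-fold in RVT (2.05 to 2.62). Its transcript ends hold 27.2% G and C, the lowest share in the set, and after centring on GC content the log2 ratios were 0.07 and 0.20. The call in RVT was also lost after TMM scaling (0.69) and after centring on the median gene (0.80). *LPAR6* and *RCBTB2*, which overlap *RB1* on the other strand, had 10 to 84 UMIs per library.

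Shares of cells with a UMI were taken after thinning each cell at random to 1500 UMIs, since depth differed between libraries. Thinning left out 397 RVC and 844 RVT cells with fewer UMIs. A cell type that lacks these genes was not at hand, and the part of these shares that comes from free RNA is unknown. *CCND1* was found in 26.4% (25.3 to 27.5), 38.2% (36.8 to 39.7), 9.03% (8.38 to 9.71) and 4.59% (4.13 to 5.09) of the cells of S, RV, RVC and RVT. Before thinning the shares were 75.7%, 92.0%, 20.9% and 8.28%.

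*CCND3* was in 1.31%, 1.82%, 4.72% (4.24 to 5.23) and 2.66% (2.31 to 3.04) of the cells of S, RV, RVC and RVT. Before thinning the shares were 8.23%, 13.3%, 13.2% and 4.85%, in which RV and RVC looked alike. At equal depth the order of the libraries was thus that of the CPM. *CCND2* was found in at most 4 thinned cells of any library, and in 30 unthinned cells of RV, 1 UMI each.

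*CDK4* was the most widely found member in S, RVC and RVT, and second to *CCND1* in RV. It was in 33.6%, 33.0%, 18.7% and 17.2% of the cells of S, RV, RVC and RVT at equal depth and in 87.4%, 89.6%, 42.2% and 30.8% before thinning. *CDK6* was in 6.32%, 4.93%, 5.16% and 15.4% (14.6 to 16.2) of thinned cells. Unthinned it was in 29.9% of S, 32.8% of RV, 13.4% of RVC and 27.8% of RVT cells, which put RVT below S. Only at equal depth did RVT rank first, as it did by CPM.

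*CDKN2C* was in 1.93%, 2.203%, 6.87% (6.30 to 7.48) and 14.1% (13.3 to 14.9) of the cells of S, RV, RVC and RVT. *CDKN1B* was in 1.59%, 1.41%, 1.45% and 6.30% of cells (5.77 to 6.87 in RVT). *RB1* was in 1.39%, 1.13%, 2.38% and 3.26%, *CDK2* in 1.61%, 2.44%, 1.45% and 1.04%, and *CCNE1* in at most 0.605%. Before thinning, *CDKN2C* was in 11.2%, 14.7%, 18.6% and 24.9% and *CDKN1B* in 8.05%, 8.31%, 3.70% and 12.3%. For *RB1* the unthinned shares were 7.85%, 9.96%, 6.32% and 6.05%, for *CDK2* 9.77%, 15.5%, 3.53% and 1.93%, and for *CCNE1* 1.63%, 2.87%, 1.35% and 1.07%.

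**Figure D4:**
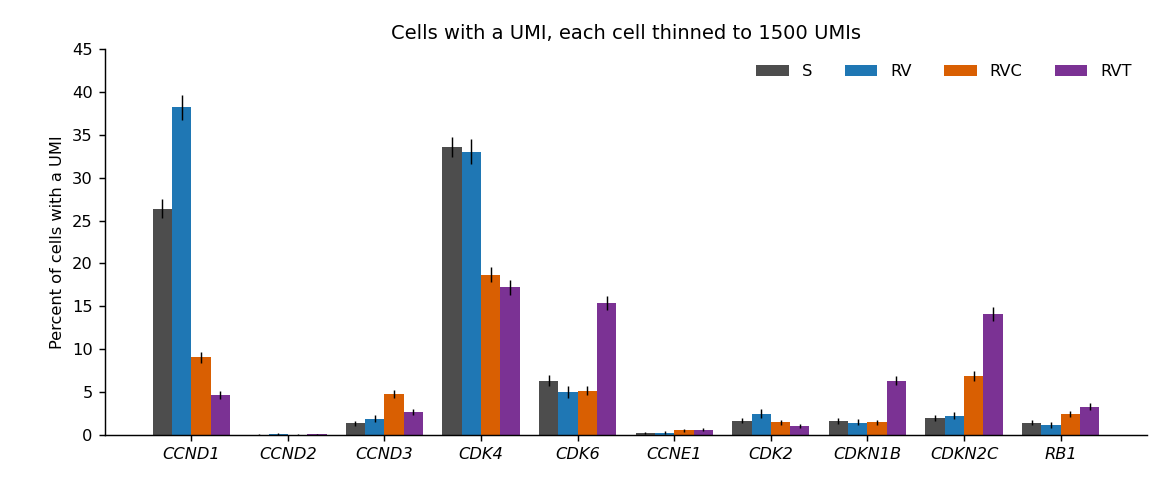
Percent of cells with at least 1 UMI of each member after every cell was thinned to 1500 UMIs, in S, RV, RVC and RVT. Bars start at 0 and error bars are exact 95% Clopper-Pearson intervals over cells of 1 library. *CCND1* is found in 38.2% of RV and 4.59% of RVT cells, and *CDKN2C* in 14.1% of RVT cells.

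Whether the D cyclins were found in the same cells was examined in the thinned cells. Any D cyclin was found in 27.5%, 39.3%, 13.4% (12.6 to 14.2) and 7.17% (6.60 to 7.77) of the cells of S, RV, RVC and RVT. Cells with *CCND3* and without other D cyclins made up 1.09%, 1.10%, 4.36% (3.90 to 4.85) and 2.53% (2.18 to 2.90) across S, RV, RVC and RVT. *CCND1* and *CCND3* occurred together in 14 S, 30 RV, 26 RVC and 10 RVT cells, and another draw gave 24, 26, 43 and 7. The product of the shares lay inside the interval in each library and draw but the second draw of RVC, with 0.595% (0.431 to 0.8002) against 0.400%. At 1500 UMIs most cells with a D cyclin transcript give no UMI, so that an absent UMI does not show an absent transcript.

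Other pairs of members met in cells about as often as the product of their shares. *CDKN1B* and *CDKN2C* were both found in 60 of 7602 RVT cells (0.789%, 0.603 to 1.01), against a product of 0.889%. *CDK4* and *CDK6* were found together in 215 RVT cells (2.83%, 2.47 to 3.23), with a product of 2.64%. *CCND1* and *CDKN2C* met in 41 RVT cells, with 49.2 from the product, and in 22 RV cells (0.527%, 0.330 to 0.796), with a product of 0.842% above that interval. It was the 1 case among 32 (8 pairs in 4 libraries) whose interval left out the product, and no correction was made for their number.

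Cells were then divided by their cycle genes, none of which is a member. UMIs of 54 G2/M genes and 43 G1/S genes were counted in each thinned cell. Cells with at least 6 G2/M UMIs, cells short of this with at least 4 G1/S UMIs, and cells with at most 2 and 1 were called G2/M-high, G1/S-high and low, and the other cells were left out. These are ranges on a count, and free RNA and depth can move a cell across. Between 61 and 1368 cells of a library lay near the G2/M-high cut, and cells near the other cuts were not counted. Of the thinned cells, 14.8%, 22.6%, 56.2% and 5.54% were G2/M-high across S, RV, RVC and RVT. G1/S-high cells made up 7.72%, 10.4%, 7.27% and 0.487%, the last only 37 cells, and low cells 50.2%, 36.5%, 10.8% and 75.3%. The mean number of G2/M UMIs per thinned cell was 2.71, 3.57, 6.88 and 1.96 in the same order, and a shift of a whole library cannot be told apart here from more cells in cycle. The members were compared within each of these ranges. Stricter states took at least 8 G2/M UMIs, at least 5 G1/S UMIs, and at most 1 and 0.

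*CCND1* was followed first. In low cells it had 212 CPM, 345, 53.9 and 28.4 for S, RV, RVC and RVT, and in G2/M-high cells 220.1, 310.04, 60.4 and 38.7. Taken in low cells alone, its log2 ratios over S were 0.71 for RV, -1.97 for RVC and -2.90 for RVT. The order of the libraries was the same in both states. In RVT it was 1.36 times higher in G2/M-high than in low cells (1.04 to 1.75), and RVT over RVC was -0.64 on the log2 scale in G2/M-high cells against -1.01 in all. In RV G1/S-high cells were 1.13 times (1.07 to 1.19) and G2/M-high cells 0.898 times (0.863 to 0.935) the low cells. With the stricter states the ratio of G2/M-high to low cells was 1.14 (1.07 to 1.22), 0.952 (0.902 to 1.01) and 1.35 (1.01 to 1.84) for S, RV and RVC. The interval of this ratio thus left out 1 in RV with the first limits alone, in S and RVC with the stricter ones alone, and in RVT with both. *CCND3* in low cells had 7.89 CPM, 8.53, 32.4 and 16.2 across S, RV, RVC and RVT. In S and RV it was higher in G1/S-high cells, at 17.9 (14.2 to 22.1) and 18.1 CPM (14.6 to 22.1). In RVC its levels in the states overlapped, from 32.4 to 37.6 CPM.

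The make-up of the D cyclins was then taken by state. *CCND3* gave 3.59% of D cyclin UMIs in low S cells (3.14 to 4.09) and 7.25% in G1/S-high S cells (5.83 to 8.90). In RV it gave 2.41% in low cells and 4.42% in G1/S-high cells. In RVC the shares were 37.5% in low, 38.8% in G1/S-high and 36.4% in G2/M-high cells, and in RVT 36.1% in low and 34.6% in G2/M-high cells. The 37 G1/S-high RVT cells held 8 D cyclin UMIs, 1 of them from *CCND3*, too few to read. The *CCND3* share was thus higher in RVC than in S and RV in each state, and in RVT in low and G2/M-high cells.

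*CDK2* differed between these ranges. In S it had 6.94 CPM in low cells (5.99 to 8.001), 25.9 in G1/S-high cells (21.5 to 31.0) and 19.2 in G2/M-high cells (16.5 to 22.1). RV gave 8.10, 19.2 and 20.1 CPM. In RVT, 5.71 CPM in low cells (4.66 to 6.92) stood beside 20.5 in G2/M-high cells (14.3 to 28.3), a 3.59-fold difference (2.38 to 5.29). In RVC the G2/M-high cells had 8.07 CPM (6.84 to 9.46) and the low cells 5.13 (2.93 to 8.33), which overlapped. The G1/S-high RVC cells had 15.9 CPM (11.2 to 22.1), 3.11-fold above low cells (1.68 to 5.995) on 36 and 16 UMIs, and 2.16-fold (0.962 to 5.46) with the stricter states. Within low cells the *CDK2* intervals of all 4 libraries overlapped, from 5.13 to 8.10 CPM. In G2/M-high cells its log2 ratio over S was -1.25 in RVC (-1.57 to -0.93), past 2-fold, and -1.20 with the stricter states. It was 0.07 in RV and 0.09 in RVT. In G1/S-high cells it was -0.70 in RVC (-1.28 to -0.16).

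*CDK4* varied with the state in S and RV and less in the others. It had 239, 376 and 323 CPM in low, G1/S-high and G2/M-high S cells and 196, 375 and 338 in RV. In RVC these were 118, 137 and 142 CPM and in RVT 126, 149 and 144. Low cells alone gave log2 ratios over S of -1.02 for RVC and -0.92 for RVT, against -1.03 and -1.16 in all cells.

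The inhibitors stayed higher in RVT than in S within states. *CDKN2C* in low cells had 13.3 CPM, 12.3, 63.2 (54.7 to 72.6) and 101 (96.1 to 105) for S, RV, RVC and RVT. In G2/M-high cells it had 17.8, 18.4, 51.1 and 107 CPM. *CDKN1B* in low cells had 8.26 CPM, 6.58, 8.34 and 42.9 (39.9 to 46.0) across S, RV, RVC and RVT, and in G2/M-high cells 14.6 (12.3 to 17.2), 10.2 (8.55 to 12.1), 9.93 (8.55 to 11.5) and 50.6 (40.6 to 62.3). In these S thus lay above RV and RVC, whereas S and RVC overlapped in low cells. In S it was 1.77 times higher in G2/M-high than in low cells (1.43 to 2.19).

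*CDK6* had 40.7, 33.5, 27.9 and 110.2 CPM in low cells of S, RV, RVC and RVT. In RVT it was lower in G2/M-high cells, at 87.6 CPM (74.3 to 102.5), 0.794 times the low cells (0.670 to 0.936). With the stricter states this was 0.855 (0.714 to 1.02), which includes no difference. In RVC it was higher in G2/M-high than in low cells, by 1.33 times (1.06 to 1.68), or 1.26 (0.879 to 1.86) with the stricter states. *RB1* in low cells had 8.04, 6.79, 15.1 and 20.8 CPM. *CCNE1* in S had 4.68 CPM in G1/S-high cells (2.93 to 7.08) and 1.21 in low cells (0.830 to 1.69), a 3.88-fold difference, on 22 and 33 UMIs. In low cells its log2 ratio over S was 1.58 in RVT (0.95 to 2.23), past 2-fold on 65 and 33 UMIs. With the stricter states it was 1.30 (0.43 to 2.22). In RV and RVC it was 0.57 and 1.09, with intervals that include no difference.

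**Figure D5:**
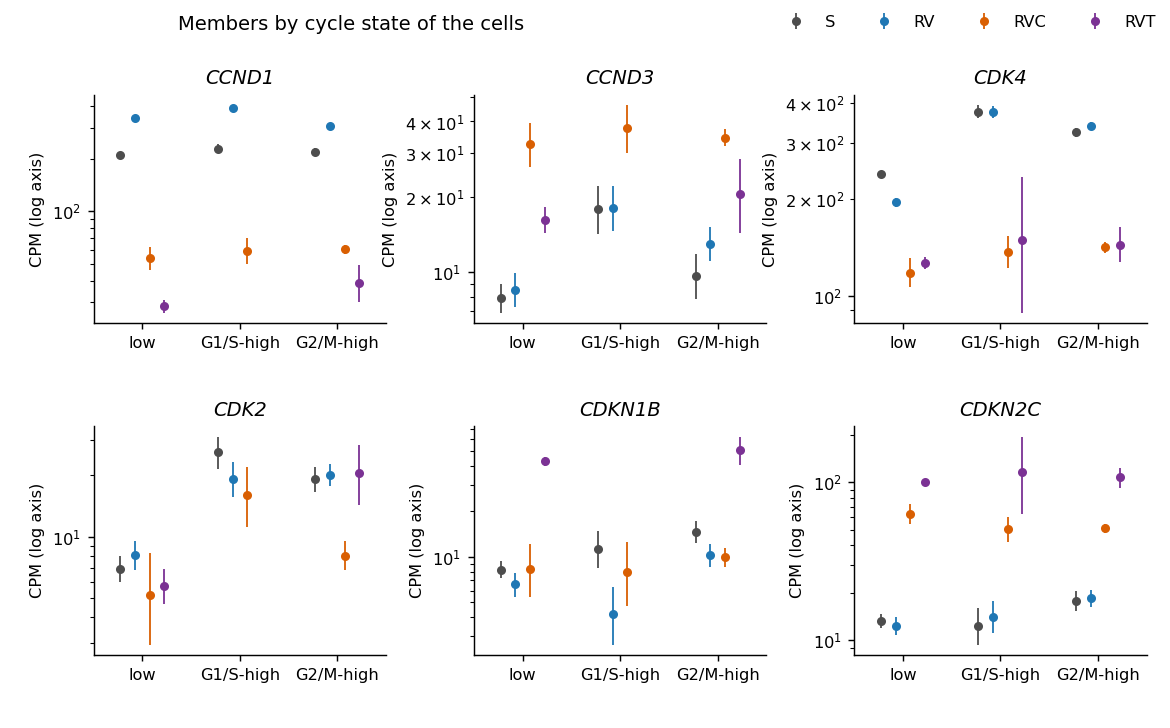
*CCND1*, *CCND3*, *CDK4*, *CDK2*, *CDKN1B* and *CDKN2C* in low, G1/S-high and G2/M-high cells of the S, RV, RVC and RVT libraries, in UMIs per 1000000 on log axes that differ between panels, with exact 95% Poisson intervals. Points with under 10 UMIs are left out. *CDK2* is lowest in low cells of each library, with intervals of low and G2/M-high cells that overlap in RVC, while *CCND1* in RVC and RVT stays below S and RV and *CDKN2C* above them, with S and RV overlapping for *CDKN2C*.

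The rest of the pathway was described from lists, given by counts past 2-fold beside the shares of all genes above. Of 20 E2F targets, genes of DNA replication that RB1 restrains, none passed 2-fold in RV over S, with a median log2 ratio of 0.43. In RVC over S 4 were higher, among them *RRM1*, *MCM3* and *MCM4*, and none was lower. In RVT over S 10 were lower and none higher (median -1.18), and in RVT over RVC 18 were lower (median -1.81). *TK1*, which makes thymidine phosphate, had 73.7 CPM, 102, 40.0 and 4.45 for S, RV, RVC and RVT, and *RRM2*, a subunit of ribonucleotide reductase, had 86.0, 106, 73.8 and 14.5.

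Of the 10 E2F and DP factors 9 were tested. None passed 2-fold in RV over S, 2 were higher and 1 lower in RVC over S, and 2 were higher and 4 lower in RVT over S. *E2F4*, a factor of quiescent cells, had 81.8 CPM, 71.6, 35.7 and 26.9 across S, RV, RVC and RVT. *E2F3* had 8.36, 6.82, 15.6 and 24.8, and *TFDP1*, the partner of E2F factors, 18.4, 17.5, 53.1 and 34.4. In RVT over RVC 1 was higher and 3 were lower.

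Of 15 further G1 regulators 14 were tested, and 2 of the list are E2F targets as well. In RV over S 1 was higher and 1 lower, in RVC over S 4 and 2, in RVT over S 2 and 3, and in RVT over RVC 3 and 4. *CDKN1A*, the p21 inhibitor of CDK2, had 102 CPM, 248, 137 and 113 for S, RV, RVC and RVT. *CKS1B*, a CDK subunit that aids the breakdown of p27, had 239.9, 325, 857 and 231. *RBL2*, the p130 relative of RB1, had 6.22, 6.18, 10.6 and 23.2.

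ERK output was given by 10 genes that respond to the pathway. In RV over S 1 was higher and 1 lower, in RVC over S none higher and 4 lower, and in RVT over S 1 higher and 5 lower. In RVT over RVC 2 were higher and 2 lower. The median log2 ratios of the list were -0.06, -0.64, -0.87 and 0.44 in this order. The log2 ratios of *CCND1* were 0.67, -1.84, -2.85 and -1.01. Summed, the 10 genes had 802 CPM, 1098, 440 and 381 across S, RV, RVC and RVT, which is the *CCND1* order. *FOSL1*, an AP-1 subunit, had 164 CPM, 341, 117 and 15.2 across S, RV, RVC and RVT. *DUSP4*, a phosphatase of ERK, had 114, 202, 14.9 and 27.1, and *ETV4*, an ETS factor, 75.5, 75.4, 19.7 and 12.6. Of the 10 genes, *FOSL1* alone had the *CCND1* order of RV, S, RVC and RVT, and *ETV4* missed it only by near equal values in S and RV.

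For each member the genes of nearest profile were sought among 6506 genes with a mean of at least 10 CPM, by the distance of centred log2(CPM + 1) values over the 4 libraries. With 4 points per gene such likeness is weak. The closest to *CCND1* were *POP7*, *ARHGDIA* and *MINCR*, of which *POP7* had 83.4, 113, 22.0 and 10.7 CPM in S, RV, RVC and RVT. The closest to *CDK4* was *HNRNPDL*, with 325, 318, 160.2 and 148. The closest to *CDKN2C* were *FAT1* and *PARP9*, to *CDK6* *LAMB2*, to *CCND3* *MT-ND6* and *VPS29*, to *CDK2* *CCT4*, to *CCNE1* *TAP1*, to *RB1* *GRSF1* and to *CDKN1B* *RAB31*. For *CCND2* the closest was *CATSPER1*, at counts too low to read.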

How the data were processed

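Each of the 4 conditions was 1 library. The values deposited by the authors were raw UMI counts of each gene in each barcode. The submitters' processing notes name Cell Ranger, bcl2fastq 2.20.0.422 and GRCh38, and the annotation, filters and strand use are not given in the sources used here. Identifiers were named and placed with GENCODE 29, and of those listed 703 occurred only for S and RV and 547 only for RVC and RVT.

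Cells with at least 500 genes and at most 20% mitochondrial UMIs were kept. Doublets were scored by scrublet (scanpy 1.11.5), and the top scores were dropped at 0.8% per 1000 barcodes, since the tool's own threshold marked at most 4 per library. This left 6334, 4177, 7628 and 8446 cells of 6695, 4328, 9266 and 10427 barcodes in S, RV, RVC and RVT. RVT had more barcodes than the 10000 cells stated as loaded, and RVC nearly as many. Some kept barcodes may thus not be captured cells, and a share of cells here is a share of kept barcodes. UMIs were summed per library and divided by its total. TMM factors (edgeR 4.0.16 in R 4.3.3) and cycle lists (Seurat 5.3.0) served alternatives and states. Other steps used python 3.11.15, numpy 2.4.6, pandas 2.3.3, scipy 1.17.1 and matplotlib 3.10.9. A count of 0 was set to 3 UMIs for limits. The ratio step was tested on simulated sums.

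All members were named. From a list at most 4 genes per comparison could be named, those with the largest ratios and no less than 20 CPM in 1 of its libraries. For each member the 3 genes of nearest profile could be named. *PTPRC*, *CD3E*, *EPCAM*, *CDH1*, *KRT8* and *KRT18* were named as marker checks. *VIM*, *MITF*, *CDKN2A*, *CDKN1C*, *CDKN2D* and *CDKN2B* were named after their values were seen. The members and lists were chosen with earlier results of these data known. Alternatives were other scalings, cell filters, weights, doublet handling, GC centring, a depth window, a pseudocount and another thinning draw, and, chosen after seeing the data, cells without fibroblast markers and centring on the median gene. Pairs of members in cells, the make-up by state and the search for motifs were also added then.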

Additional observations from a re-analysis of the deposited data

How the results depend on the processing

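No paired analysis was possible because each condition has 1 library. Of 52 counts of members past 2-fold under alternatives, 51 stayed within 1.5 times, a wide limit for so few members. Those of RV over S were 0 throughout, so a ratio cannot show stability there. RVT over RVC fell from 4 to 2 in cells without a fibroblast marker UMI. Of all genes 35.83% passed in those cells, against 33.97% in the main setting. A like count can hold other members. The split of RVT over S, 4 higher and 2 lower, became 2 and 3 with TMM scaling and with GC centring and 3 and 3 with centring on the median gene. It moved the other way with equal cell weight and in cells of 2500 to 6000 UMIs, where *CCNE1* joined the higher members. In the latter cells *CCNE1* had at most 3 UMIs in S, so its call there cannot be read, and *CDK4* also left the lower ones. The split of RVT over RVC, 2 and 2, became 3 and 0 with totals without ribosomal and mitochondrial genes, where *CDKN2C* was past 2-fold (log2 ratio 1.06). Over all genes 34.1% were higher and 21.7% lower in RVT over S, and 20.8% and 30.2% with TMM scaling. D cyclin make-up moved in RV cells of 2500 to 6000 UMIs (*CCND1* 97.8%, *CCND3* 1.96%) and in RVC cells without a fibroblast marker UMI (59.99% and 40.01%). Another thinning draw gave *CCND1* 8.34%, *CDKN2C* 7.48%, any D cyclin 12.5%, *CCND1* alone 7.74% and both cyclins 0.595% in RVC, *CDK6* 5.64%, *CDKN1B* 1.28% and both cyclins 0.379% in S, and *CDKN1B* 1.05% in RV. With stricter states the log2 ratio of G2/M-high over low cells was 0.19 in S, -0.070 in RV and 0.43 in RVC for *CCND1*, -0.18 in S for *CCND3*, 0.37 in S and 0.93 in RV for *CDK4*, -1.33 in S for *CCNE1*, 1.20 in S for *CDKN1B* and 0.70 in RVC for *RB1*. That of G1/S-high over low cells was 0.74 in S and 1.15 in RV for *CDK4* and 0.12 in S for *RB1*. The cause of these moves was not tested. Depth limits *CCND2* and *CCNE1*, with 3 to 123 UMIs where any were found, and the 37 G1/S-high RVT cells.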
